A study of Mus musculus with 2 samples.

Results

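Cassette exons that lie in coding sequence, are longer than 30 nucleotides and have a length that is a multiple of 3 add or remove a stretch of protein without moving the reading frame. In the RNA-seq data of N2A cells, 1247 such exons in 998 genes passed limits on reads and on inclusion, out of 9319 distinct cassette exons of all kinds. They were selected by position and by measured values. Of the 2958 cassette exons over 30 nucleotides whose length is a multiple of 3 and that lie wholly inside an annotated coding segment of mm9 on the same strand, 2079 had at least 20 reads on their exon trio in each library, and 1247 of these had a percent spliced in (PSI) of 5 to 95 in at least 1 library. The other 879 candidates fell below 20 reads in a library, and 832 had enough reads but were almost fully included or skipped in both libraries. Of the 1247 exons, 1207 matched an annotated coding segment exactly and 40 lay inside a longer one. At the limits of the selection, an exon of Lrrc67 was just inside with 20 reads with the control shRNA, and an exon of Rab3il1 was just outside with 19 reads after knockdown. On the PSI scale, an exon of Ino80e was just inside with PSI of 99 and 95 with the control shRNA and after knockdown, and an exon of Tusc3 was just outside with 97.6 and 95.1.

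N2A is a mouse neuroblastoma cell line. Cells were transfected either with a control shRNA or with an shRNA against Ptbp1, and RNA was collected 3 days later. Each condition is 1 library, strand-specific and read in pairs of 100 bases, so differences between the libraries carry no replicate error, and p-values over exons are left out. The cells carried no other stated alteration, and both libraries come from transiently transfected bulk cultures in which untransfected cells were not removed by any stated step.

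PTBP1 is an RNA-binding protein of non-neuronal and progenitor cells that binds pyrimidine-rich RNA and represses many exons whose inclusion is typical of neurons. It is replaced by its homolog PTBP2 as neurons differentiate. A cassette exon that keeps the reading frame switches the cell between protein isoforms, whereas a frame-shifting exon more often decides whether a functional protein is made at all.

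The sequences of the exons with the largest changes are shown first, because the intron just upstream is where PTBP1 is known to act on many repressed exons. Each runs 5′ to 3′ on the transcript strand of mm9, with the exon in capitals, 60 intron bases before it and 10 after it. The first 8 belong to exons with large rises in PSI after Ptbp1 knockdown. They are Dpf2 (chr19:5903721-5903832, minus strand), Clta (chr4:44044212-44044317, plus), Plekha6 (chr1:135182764-135182983, plus), Anxa7 (chr14:21286670-21286805, minus), Atp8a1 (chr5:68147879-68147993, minus), Tnrc6a (chr7:130323703-130323919, plus), Ppfibp2 (chr7:114872170-114872272, plus) and Dst (chr1:34358646-34358787, plus).
Dpf2: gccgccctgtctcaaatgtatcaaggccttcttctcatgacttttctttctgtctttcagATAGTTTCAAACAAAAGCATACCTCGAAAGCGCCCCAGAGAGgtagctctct
Clta: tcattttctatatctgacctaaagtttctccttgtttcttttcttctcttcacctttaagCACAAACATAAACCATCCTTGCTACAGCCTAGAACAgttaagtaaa
Plekha6: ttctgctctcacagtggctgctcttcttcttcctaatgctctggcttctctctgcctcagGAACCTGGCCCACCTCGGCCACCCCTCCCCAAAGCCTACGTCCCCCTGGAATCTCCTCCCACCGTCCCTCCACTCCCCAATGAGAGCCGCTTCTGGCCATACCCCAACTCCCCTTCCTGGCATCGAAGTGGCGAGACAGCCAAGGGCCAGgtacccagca
Anxa7: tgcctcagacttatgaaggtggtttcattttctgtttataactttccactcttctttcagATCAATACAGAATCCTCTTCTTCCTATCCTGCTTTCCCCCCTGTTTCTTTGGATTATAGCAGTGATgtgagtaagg
Atp8a1: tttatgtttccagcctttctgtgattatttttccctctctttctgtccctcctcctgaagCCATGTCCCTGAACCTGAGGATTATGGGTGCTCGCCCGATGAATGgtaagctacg
Tnrc6a: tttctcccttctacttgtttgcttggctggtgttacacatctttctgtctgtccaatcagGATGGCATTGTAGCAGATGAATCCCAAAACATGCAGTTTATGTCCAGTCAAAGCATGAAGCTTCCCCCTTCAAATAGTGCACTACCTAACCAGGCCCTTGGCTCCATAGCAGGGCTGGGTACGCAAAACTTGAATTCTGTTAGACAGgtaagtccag
Ppfibp2: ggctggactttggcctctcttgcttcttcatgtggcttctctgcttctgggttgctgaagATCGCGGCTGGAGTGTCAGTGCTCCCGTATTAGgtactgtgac
Dst: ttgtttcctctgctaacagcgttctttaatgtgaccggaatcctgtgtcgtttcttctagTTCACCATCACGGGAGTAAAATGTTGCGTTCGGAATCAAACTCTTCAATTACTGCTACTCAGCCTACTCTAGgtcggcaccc
The next 6 belong to exons with large falls in PSI. They are Flnc (chr6:29402739-29402907, plus strand), Slc9a7 (chrX:19716029-19716158, minus), Arhgap39 (chr15:76560784-76560946, minus), Triobp (chr15:78806837-78806984, plus), Dmxl2 (chr9:54227572-54227704, minus) and Myo5a (chr9:75040131-75040281, plus).
Flnc: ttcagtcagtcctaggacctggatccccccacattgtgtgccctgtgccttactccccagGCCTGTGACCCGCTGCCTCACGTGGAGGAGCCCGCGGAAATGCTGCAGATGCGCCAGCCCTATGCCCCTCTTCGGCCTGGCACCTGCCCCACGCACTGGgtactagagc
Slc9a7: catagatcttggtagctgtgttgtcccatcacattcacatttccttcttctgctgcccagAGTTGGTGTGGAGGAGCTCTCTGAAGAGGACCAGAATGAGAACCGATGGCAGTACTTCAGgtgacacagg
Arhgap39: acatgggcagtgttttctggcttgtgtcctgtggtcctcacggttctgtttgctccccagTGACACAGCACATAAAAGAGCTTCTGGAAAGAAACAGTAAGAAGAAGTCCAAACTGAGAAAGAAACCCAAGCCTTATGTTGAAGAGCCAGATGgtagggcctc
Triobp: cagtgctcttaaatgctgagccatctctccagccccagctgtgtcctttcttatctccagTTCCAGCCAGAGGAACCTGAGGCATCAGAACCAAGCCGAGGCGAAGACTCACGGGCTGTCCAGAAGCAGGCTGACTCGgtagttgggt
Dmxl2: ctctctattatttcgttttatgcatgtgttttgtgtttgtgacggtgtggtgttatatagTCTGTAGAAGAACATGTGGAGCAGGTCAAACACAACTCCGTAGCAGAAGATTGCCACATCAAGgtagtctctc
Myo5a: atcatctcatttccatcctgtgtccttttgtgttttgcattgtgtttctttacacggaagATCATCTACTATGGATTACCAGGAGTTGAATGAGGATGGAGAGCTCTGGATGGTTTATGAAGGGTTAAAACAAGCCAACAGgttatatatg

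Before the exons were compared, the target of the shRNA and the identity of the cells were checked. Ptbp1 RNA was lower after knockdown, with a log2 ratio of -1.61 (FPKM plus a pseudocount of 1), with outermost Cufflinks bounds of -1.68 and -1.54. Ptbp1 was matched by the position of its locus with the control shRNA and by RefSeq transcript after knockdown. The bounds do not cover this difference in matching. The homolog Ptbp2 had a log2 ratio of 0.93 (0.78 to 1.08), and Ptbp3, a further member of the family, of -0.88 (-1.25 to -0.53). Of 10 markers of sympathetic neuroblastoma and neurons, 9 were at or above the median FPKM of all named genes with the control shRNA and 8 after knockdown, with Hand2 at the 99th percentile in both. Nefl was below the median in both libraries, and Th was matched with the control shRNA alone. The summed FPKM of 5 sets of markers of astrocytes, oligodendrocytes, leukocytes, muscle and epithelium, each of 3 genes, was between 0.000639% and 0.347% of that of the neuroblastoma set with the control shRNA and between 0.00435% and 0.262% after knockdown. The defining markers Aqp4 and Myod1 were listed at 0 in both. Depth differed between the libraries, with 75860076 reads over distinct splice junctions with the control shRNA and 59483573 after knockdown.

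Across the 1247 exons, inclusion moved in both directions after knockdown. An exon was called as rising when its PSI was at least 5 points higher after knockdown and the 95% Newcombe interval of the difference in junction reads lay above 0, and as falling in the mirror case. By this rule 253 exons rose (20.3%), 179 fell (14.4%) and 815 did neither. The same rule called 14.5% of all 3790 assayable cassette exons as rising and 11.2% as falling, these exons included. Of the 432 calls, 108 were rises of 20 points or more and 43 were falls of 20 points or more, and 25 rises and 6 falls reached 40 points. The shares of all assayable cassette exons at 20 and 40 points were not worked out. These larger changes are therefore not read as a trait of the 1247 exons. The intervals cover counting error only, compare the 2 libraries and are not adjusted for the number of exons.

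The centre of the distribution hardly moved. The median PSI was 65.0 with the control shRNA and 65.5 after knockdown, and the median difference (knockdown minus control), was -0.2 points, with quartiles of -5.2 and 7.2, beside a median of -0.1 over all assayable cassette exons. Trio reads had a median of 677 with the control shRNA and 591 after knockdown. With 5 points as the only criterion, 393 exons were higher and 325 lower, or 31.5% and 26.1%, beside 27.8% and 25.3% of all assayable cassette exons. The interval of 286 of the exons past 5 points included 0, and 529 exons differed by less than 5 points.

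**Figure D1:**
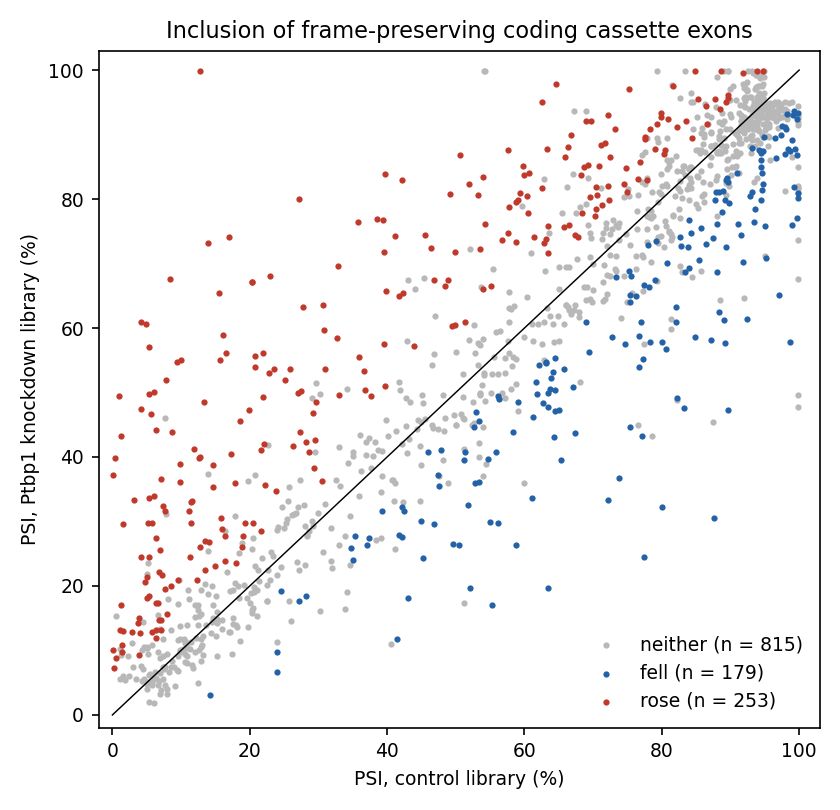
PSI (%) of each of the 1247 exons with the control shRNA (horizontal) and the Ptbp1 knockdown library (vertical), coloured by call, with the line of equal inclusion. The 253 exons that rose spread far above the line, many from a control PSI under 20, and the 179 that fell lie below it.

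The room that an exon had to move in differed with its control PSI. Of the 251 exons with a control PSI under 20, 99 rose (39.4%) and 1 fell, and of the 552 between 20 and 80, 134 rose (24.3%) and 93 fell (16.8%). Among the 444 with a control PSI over 80, 20 rose (4.50%) and 85 fell (19.1%). Over all assayable cassette exons, 23.1% rose and 1.29% fell with a control PSI under 20, 17.8% and 13.1% between 20 and 80, and 4.21% and 16.5% over 80. The direction is partly fixed here, since an exon near 0 cannot fall by much and one near 100 cannot rise by much. The selection fixes it further, since an exon with a control PSI under 5 entered only if its PSI was higher after knockdown, and one over 95 only if it was lower. Of the exons named below, this applies to rises in Anxa7, Atp8a1, Agrn, Itsn2, Ap2a1, Vav2, Dnm1l and Ablim1. It also applies to falls in Dmxl2, Ptprf, Clip1, Srsf10, Asph and Ablim1. The direction of these changes was set by the selection and is not a result. Among the 209 exons with a control PSI from 5 to under 20, which the control library alone admits, 75 rose (35.9%) and 1 fell, beside 20.1% and 1.62% of all assayable cassette exons in that range. From over 80 to 95, 20 of 347 rose (5.76%) and 60 fell (17.3%), beside 5.45% and 14.7%.

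Among the exons with at least 20 junction reads in each library, the largest rise was in Dpf2. This gene encodes a subunit of the BAF chromatin-remodelling complex that carries a pair of PHD fingers. Its exon of 42 nucleotides, which adds 14 residues, went from a PSI of 13.9 with the control shRNA to 73.2 after knockdown. The inclusion junctions held 139 and 23 reads against 722 on the skipping junction with the control shRNA, and 635 and 102 against 194 after knockdown. Inclusion from junction reads alone was 10.1% and 65.5%, a difference of 55.5 points (95% Newcombe interval 50.8 to 59.7), with p = 3.03e-106 in Fisher's exact test (two-sided), a comparison of libraries rather than of conditions.

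Exons of Clta, Anxa7 and Atp8a1 were also among the largest rises. In Clta, the clathrin light chain a, an exon of 36 nucleotides had a PSI of 8.4 with the control shRNA and 67.6 after knockdown, although its junction reads gave a smaller difference of 39.0 points (29.9 to 46.9), from 28.0% to 67.0%. PSI of the exon just before it, of 54 nucleotides, was 6.0 and 34.0, and junction reads put the rise at 26.2 points (23.8 to 28.6). As the exons are neighbours, the junctions of 1 trio do not cover every path through both. In Atp8a1, a phospholipid flippase, an exon of 45 nucleotides rose from 4.9 to 60.6, and in Anxa7, a calcium-dependent membrane-binding annexin, an exon of 66 nucleotides rose from 4.2 to 61. The exons of Atp8a1 and Anxa7, under 5 with the control shRNA, entered the selection only because their PSI was higher after knockdown. The inclusion junctions of the Anxa7 exon held 21 and 2 reads with the control shRNA and 184 and 52 after knockdown, against 315 and 88 on the skipping junction.

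Several large rises were in regulators of signalling and of RNA. Plekha6, a pleckstrin homology domain protein, had an exon of 150 nucleotides whose PSI rose from 17.0 to 74.1, with 41 and 83 inclusion reads against 331 skipping reads with the control shRNA and 227 and 247 against 82 after knockdown. Tnrc6a, a partner of Argonaute in microRNA silencing, had an exon of 147 nucleotides that rose from 27.2 to 80.0 (junction difference 54.9 points, 48.7 to 60.4). Ralgapa1, the catalytic subunit of a Ral GTPase-activating complex, had an exon of 141 nucleotides that rose from 5.4 to 49.8, and Tbc1d9b, which carries a domain of Rab GTPase-activating proteins, had one of 51 nucleotides that rose from 20.3 to 67.2.

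Cytoskeletal and adhesion genes were also among the largest rises. In Ppfibp2, a liprin beta scaffold, an exon of 33 nucleotides went from 5.4 to 57.1 in PSI, and held 472 skipping reads with the control shRNA and 141 after knockdown. In Dst, the cytoskeletal linker dystonin, an exon of 72 nucleotides rose from 15.5 to 65.5, and in Camsap2, which binds microtubule minus ends, one of 33 nucleotides rose from 20.4 to 67.1. In Mllt4, which encodes the junction protein afadin, an exon of 45 nucleotides rose from 10.0 to 55.1. Other large rises were in Atg16l1, an autophagy protein, at 9.4 and 54.7, and in Trim9, a ubiquitin ligase of the brain, at 39.7 and 83.9. The Trim9 exon had only 20 junction reads with the control shRNA and 22 after knockdown, its interval reached down to 1.73 points, and Fisher's exact test, two-sided, gave p = 0.0656.

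The largest difference in PSI of all 1247 exons was in Palld, which encodes the actin-bundling protein palladin, but it rests on few reads. The exon of 51 nucleotides had a PSI of 12.8 with the control shRNA and one 87.1 points higher after knockdown, from 40 and 41 trio reads. Only 3 and 10 junction reads stood behind it, and the interval of the difference was 3.46 to 93.9 points.

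The largest fall was in Flnc, the actin cross-linker filamin C. Its exon of 99 nucleotides, which adds 33 residues, had a PSI of 87.6 with the control shRNA and 30.5 after knockdown. The inclusion junctions held 88 and 80 reads against 13 skipping reads with the control shRNA, and 35 and 34 against 79 after knockdown, a junction difference of -55.9 points (-65.3 to -43.7) with p = 7.52e-17 (Fisher's exact test, two-sided). Inclusion was thus the main form of this exon with the control shRNA and the minor form after knockdown.

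Other falls were in genes of transport and of the cytoskeleton. In Myo5a, the cargo motor myosin Va, an exon of 81 nucleotides fell from a PSI of 72.1 to 33.3, with 878 and 565 inclusion reads against 325 skipping reads with the control shRNA and 314 and 236 against 618 after knockdown. In Mtap2, the neuronal microtubule protein MAP2, an exon of 93 nucleotides fell from 55.3 to 17.1. In Dmxl2, a rabconnectin that acts on the vacuolar proton pump, an exon of 63 nucleotides fell from 98.7 to 57.9, its skipping reads being 4 with the control shRNA and 68 after knockdown. In Arhgap39, a GTPase-activating protein, an exon of 93 nucleotides fell from 80.1 to 32.2 (junction difference -47.1 points, -55.2 to -37.8).

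The remaining large falls had fewer reads. In Slc9a7, a sodium-proton exchanger of the Golgi, an exon of 60 nucleotides fell from a PSI of 77.4 to 24.5 with an interval of -72.8 to -23.3 points, and in Synrg, a partner of the AP-1 adaptor, one of 234 nucleotides fell from 63.5 to 19.7. In Triobp, an actin-binding protein, an exon of 78 nucleotides fell from 89.6 to 47.3, with 3 skipping reads with the control shRNA and 9 after knockdown. Dtx2, a deltex family ubiquitin ligase, had an exon of 138 nucleotides that fell from 73.8 to 36.8, and Tmem194b, a nuclear envelope protein, one of 69 nucleotides that fell from 83.3 to 47.6. The intervals of these falls lay below 0.

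**Figure D2:**
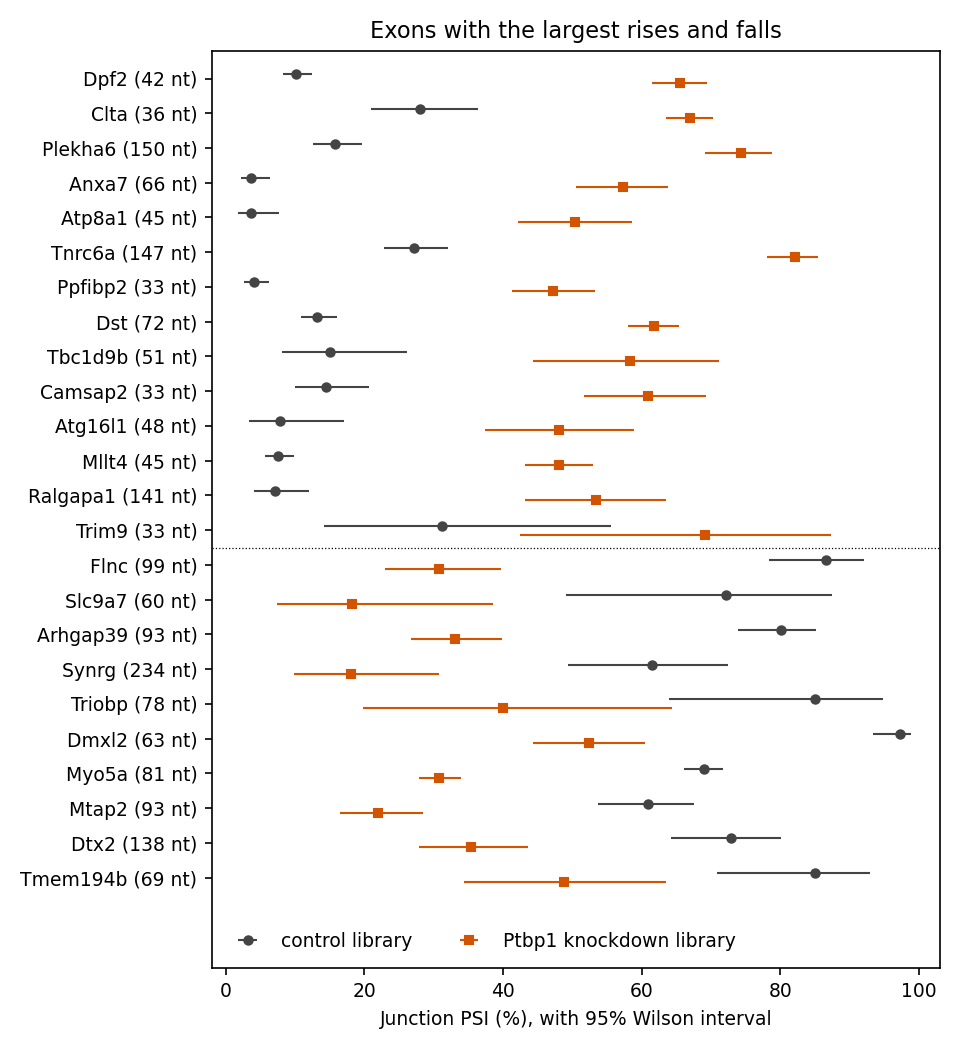
Inclusion from junction reads (%), with 95% Wilson intervals for counting error, in the control and Ptbp1 knockdown libraries for 14 of the exons with the largest rises (above the dotted line) and the 10 with the largest falls. The intervals of the 2 libraries do not overlap for 22 of these 24 exons, and they overlap for Trim9 and Triobp. The exons were picked by calls on these same reads, so intervals that lie apart are no further support for the calls.

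The genes of the exons were grouped into 12 functional lists, which hold 473 of the 1247 exons. The lists were drawn up from genes known for alternative exons, PTB targets among them, so their shares are no independent evidence. Over all lists 143 exons rose (30.2%) and 74 fell (15.6%), and among the 774 exons in no list 110 rose (14.2%) and 105 fell (13.6%).

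Membrane traffic, small GTPase regulation and synaptic scaffolds had the highest shares of rises. Of 53 exons in endocytosis and membrane trafficking genes, 23 rose and 10 fell. The 2 called exons with the most reads in this list were those of Clta described above. Of 39 exons in small GTPase regulators, 16 rose and 5 fell, with a median difference of 10.6 points. Cdc42bpa, a kinase that acts downstream of Cdc42, had an exon of 243 nucleotides that rose from 63.2 to 73.8, and Mtmr3, a phosphoinositide phosphatase, one of 111 nucleotides that fell from 28.2 to 18.5. Of 19 exons in synaptic scaffolds, 9 rose and 2 fell. Grip1, a scaffold of glutamate receptors, had an exon of 45 nucleotides that rose from 25.1 to 51.9, and Rims2, a scaffold of the presynaptic active zone, one of 78 nucleotides that fell from 42.5 to 31.6, with an interval that reached up to -0.0761 points.

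Adhesion, microtubule and actin genes had shares of rises of 40.5%, 37.5% and 32.0%. Of 42 exons in adhesion and cell surface receptor genes, 17 rose and 7 fell. Ncam1, the neural cell adhesion molecule, had an exon of 801 nucleotides that rose from 21.9 to 49.3, and Lrp8, a reelin receptor, one of 177 nucleotides that rose from 57.6 to 74.7. Of 40 exons in microtubule and motor genes, 15 rose and 11 fell, among them Mark3, a kinase of microtubule-associated proteins, at 73.2 and 90.8, and the mitotic spindle protein Numa1 at 89.4 and 95.1. Of 50 exons in actin and spectrin genes, 16 rose and 11 fell. Spna2, the alpha spectrin of non-erythroid cells, had an exon of 60 nucleotides that rose from 79.3 to 91.6, and the protein 4.1 gene Epb4.1l1 one of 36 nucleotides that rose from 57.6 to 87.6.

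The other lists lay on both sides of the whole set in their share of rises. Kinases and phosphatases had 12 rises and 5 falls among 43 exons, with Pip5k1c, a lipid kinase, rising from 6.6 to 17.4 and Map4k4 from 84.4 to 89.5. RNA-binding and splicing genes had 12 rises and 8 falls among 56 exons, with the Hu protein gene Elavl2 rising from 29.3 to 38.3 and Prrc2c from 71.3 to 79.1. Translation and protein turnover genes had the highest share of these, with 9 rises and 2 falls among 25 exons, Eif4g2, a relative of the scaffold eIF4G, rising from 74.9 to 81.1 and the ubiquitin ligase Rnf138 from 65.8 to 75.7. Channels, pumps and transporters had 4 rises and 3 falls among 14 exons, the flippase Atp9b rising from 70.8 to 85.2. Matrix and secreted proteins had 2 rises and no fall among 8 exons, Plod2, a collagen lysyl hydroxylase, rising from 65.9 to 86.5 and agrin (Agrn) from 1.6 to 13. Chromatin and transcription genes were the list with fewer rises than the whole set, at 8 rises and 10 falls among 84 exons, with falls in Trim33 from 76.9 to 61 and in Gatad2a, a subunit of the NuRD complex, from 94.2 to 87.6.

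**Figure D3:**
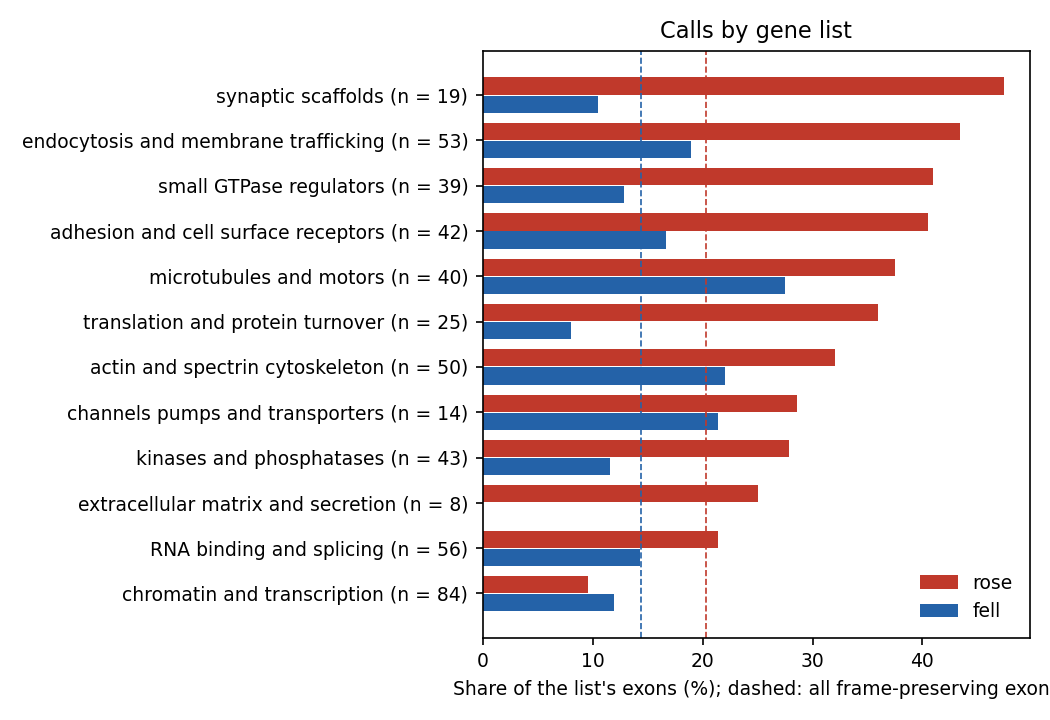
Share (%) of the exons of each gene list that rose (red) or fell (blue), with n the exons of the list, and dashed lines at the shares over all 1247 exons (20.3% and 14.4%). Synaptic scaffolds have the highest share of rises at 47.4% and chromatin and transcription genes the lowest at 9.52%.

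Further exons of these lists, named after their values were seen, show how the changes lie within single proteins. Exons that were almost absent with the control shRNA appeared in Itsn2, an endocytic scaffold, where 81 nucleotides had 0 inclusion reads against 362 skipping reads with the control shRNA and 105 and 93 against 190 after knockdown, and in Ap2a1, the large AP-2 adaptor subunit, where 66 nucleotides rose from 1.3 to 43.3. The exon of 114 nucleotides of Kif2a, a kinesin that takes microtubules apart, rose from 6.0 to 50.1, with a junction difference of 45.6 points (40.9 to 49.9). Arhgef1 and Vav2, both guanine nucleotide exchange factors, had exons of 168 and 87 nucleotides that rose from 7.8 to 51.9 and from 1.5 to 29.6. The exons of Itsn2, Ap2a1 and Vav2, under 5 with the control shRNA, entered the selection only because their PSI was higher after knockdown.

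Well-known neural genes were among them. The exon of 93 nucleotides of Bin1, a membrane-bending amphiphysin, rose from 32.7 to 58.5, with 706 skipping reads with the control shRNA and 342 after knockdown. In Mapt, which encodes tau, exons of 87 and 93 nucleotides rose from 30.9 to 53.6 and from 63.5 to 71.7, while another pair of its exons did neither. Dlg4, which encodes the postsynaptic scaffold PSD-95, had an exon of 165 nucleotides that rose from 69.6 to 80.3 and an overlapping exon of 66 nucleotides that did neither. In Ctnna2, the neural alpha catenin, 144 nucleotides rose from 59.8 to 85.2.

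Falls in the same lists included splicing and chromatin regulators. Rbfox2 and Srsf10, both splicing factors, had exons of 51 nucleotides that fell from 72.7 to 58.6 and from 97.4 to 89.9. Kdm1a, a histone demethylase, had an exon of 60 nucleotides that fell from 47.8 to 41.1, and Dnmt3b, a DNA methyltransferase, one of the same length that fell from 14.2 to 3.1. In Ank3, the ankyrin of the axon initial segment, 63 nucleotides fell from 52.1 to 19.7. Outside the lists, Immt, a protein of mitochondrial cristae, had 4 exons that fell, 3 of which overlap and share junction reads, the one of 138 nucleotides from 82.2 to 49.1.

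In 17 of the 187 genes with more than 1 of these exons, exons of the same gene were called in opposite directions, 40 exons in all. With 20.3% of the 1247 exons rising and 14.4% falling, some genes would hold both calls by these shares alone. How many was not worked out, so the count is not read as a trait of these genes. Beside the rising exon of 72 nucleotides, Dst had falls in others. One of 327 nucleotides fell from 82.0 to 61, and one of 111 nucleotides from 89.0 to 61.2. In Rapgef1, an exchange factor of Rap GTPases, exons of 153 and 258 nucleotides rose from 6.3 to 44.2 and from 36.8 to 50.4, and one of 114 nucleotides fell from 46.8 to 29.6. The exon of 258 nucleotides had 105 trio reads with the control shRNA and 552 after knockdown, its interval reached down to 0.150 points, and Fisher's exact test, two-sided, gave p = 0.0531. In Ptprf, a receptor phosphatase, an exon of 33 nucleotides rose from 11.9 to 41.2 and one of 579 nucleotides fell from 98.9 to 76.0.

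Opposite calls were also found in genes of other functions. Clip1, a microtubule plus-end protein, had an exon of 105 nucleotides that rose from 11.4 to 29.8 and one of 117 nucleotides that fell from 99.7 to 77.1. Cadm1, a synaptic adhesion molecule, had an exon of 33 nucleotides that rose from 30.6 to 63.5 and one of 84 nucleotides that fell from 88.9 to 81.3. Snap91, a clathrin assembly protein, had a pair of exons of 84 nucleotides, of which one fell from 83.9 to 69.3 and the other rose from 69.7 to 92.1. Junction reads put this rise at 9.01 points (2.31 to 16.7), from 84.6% to 93.6%. In Aplp2, a relative of the amyloid precursor protein, an exon of 36 nucleotides rose from 15.8 to 30.6 and one of 168 nucleotides fell from 61.3 to 46.2. App itself, which was chosen after its values were seen, had an exon of 168 nucleotides that fell from 58.8 to 26.4.

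Falls of more than 20 points stood beside smaller rises in Dnm1l, Cacna1c and Myo9a. Dnm1l, the GTPase of mitochondrial fission, had an exon of 39 nucleotides that rose from 2.9 to 12.8 and one of 33 nucleotides that fell from 65.3 to 39.6, the latter with no reads on 1 of its inclusion junctions in either library. Such a missing junction was found in 31 of the 1247 exons, 11 of them called, beside 432 called among all 1247. The share called is close to that of the whole set and is not read as a trait of these exons. Cacna1c, the pore-forming subunit of a voltage-gated calcium channel, had an exon of 75 nucleotides that fell from 56.1 to 29.8 and one of 60 nucleotides that rose by 11.3 points from 88.6. In Myo9a, an unconventional myosin, an exon of 213 nucleotides fell from 64.3 to 43.1 and one of 54 nucleotides rose from 6.8 to 22.1. In Mll3, a histone methyltransferase gene, an exon of 105 nucleotides rose from 60.4 to 80.5 and one of 213 nucleotides fell from 87.4 to 73.9. In Ablim1 and Myo18a, 2 of the 3 called exons overlap and share a splice site, so their reads are not independent. The remaining genes were Asph, Bag6, Madd and Pcm1, each with exons called in both directions. The only fall in Madd, in an exon of 60 nucleotides, was marginal, with an interval of -17.3 to -0.148 points. In all, 71 of the 1247 exons overlap another.

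Within the selection, rises were most frequent among the shortest exons. Of the 283 exons of 31 to 60 nucleotides, 32.2% rose and 11.3% fell, and of the 386 of 61 to 99 nucleotides, 18.4% rose and 16.1% fell. Among the 316 of 100 to 150 nucleotides the shares were 15.8% and 17.4%, and among the 262 longer ones 15.6% and 11.5%. The exons of 31 to 60 nucleotides also began lower, with a median control PSI of 48.9, beside 67.8 to 72.4 in the other groups. The part of this in their rises was not tested. Outside the selection, of 200 assayable coding cassette exons of 30 nucleotides or less, 45.5% rose and 3.00% fell, from a median control PSI of 38.5. Shares by length over all assayable cassette exons were not worked out. The share at 31 to 60 nucleotides is therefore not read as a peak or as a trait of the selected exons. By position in the codon, 20.8%, 20.2% and 20.5% of the exons that begin 0, 1 and 2 bases before a whole codon rose.

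Frame-shifting exons over 30 nucleotides in coding sequence were set beside the frame-preserving ones. Of 801 such exons, 46 rose (5.74%) and 114 fell (14.2%), with a median difference of -1.9 points. They were much more included with the control shRNA, with a median PSI of 88.2 beside 65.0. Within a control PSI under 20, where the limit on PSI acts on the direction in both classes, 10 of 59 frame-shifting exons rose (16.9%), beside 99 of 251 frame-preserving ones (39.4%), and from 5 to under 20 the shares were 17.4% and 35.9%. Between 20 and 80, the shares were 9.52% and 24.3%, and over 80 they were 3.01% and 4.50%. Exons of 1 pair of libraries are not replicates, so this difference was not tested.

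**Figure D4:**
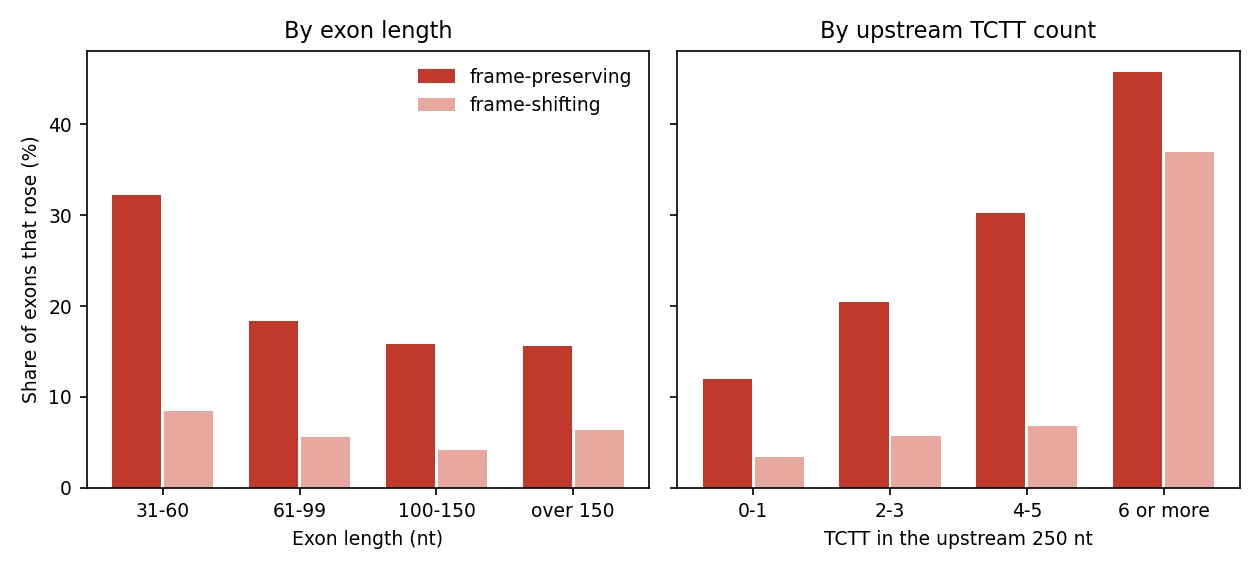
Share (%) of exons that rose, by exon length in nucleotides (left) and by the number of TCTT in the 250 intron bases upstream (right), for the 1247 frame-preserving and 801 frame-shifting coding cassette exons over 30 nucleotides. Among the exons drawn, rises are most frequent in those of 31 to 60 nucleotides and in those with 6 or more TCTT.

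The sequence around the exons was not used to choose or call them. Over the 250 intron bases upstream, or as many as the intron has, the median share of C and T was 58.0% for the exons that rose (quartiles 53.6 and 62.8), 54.4% for those that fell (50.4 and 57.1) and 53.6% for those that did neither (49.6 and 57.6). Over the nearest 100 bases the medians were 65.0%, 57.0% and 56.0%. All assayable cassette exons had 53.6% over 250 bases. The 3 groups overlapped widely, as the quartiles show.

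The share of C and T was also taken in bins of 10 bases. In the exons that rose, the share of C and T was 77.1% from 20 to 11 bases before the exon, 71.9% from 30 to 21 bases and 67.8% from 40 to 31 bases. In those that did neither it was 72.5%, 61.4% and 55.7% at the same places, and in those that fell 69.4%, 58.3% and 57.0%. In the last 10 bases the order was the other way, at 58.7% for the exons that rose, 60.9% for those that fell and 61.5% for the rest. From 250 to 241 bases before the exon it was 52.2% for the exons that rose, 51.6% for those that did neither and 53.4% for those that fell. Downstream, the exons that rose had a median of 56.0% over 100 bases, beside 54.0% for those that fell and 52.0% for the others. In the exon itself the medians were 51.1%, 45.6% and 47.5% in the same order, beside 48.2% over all assayable cassette exons.

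**Figure D5:**
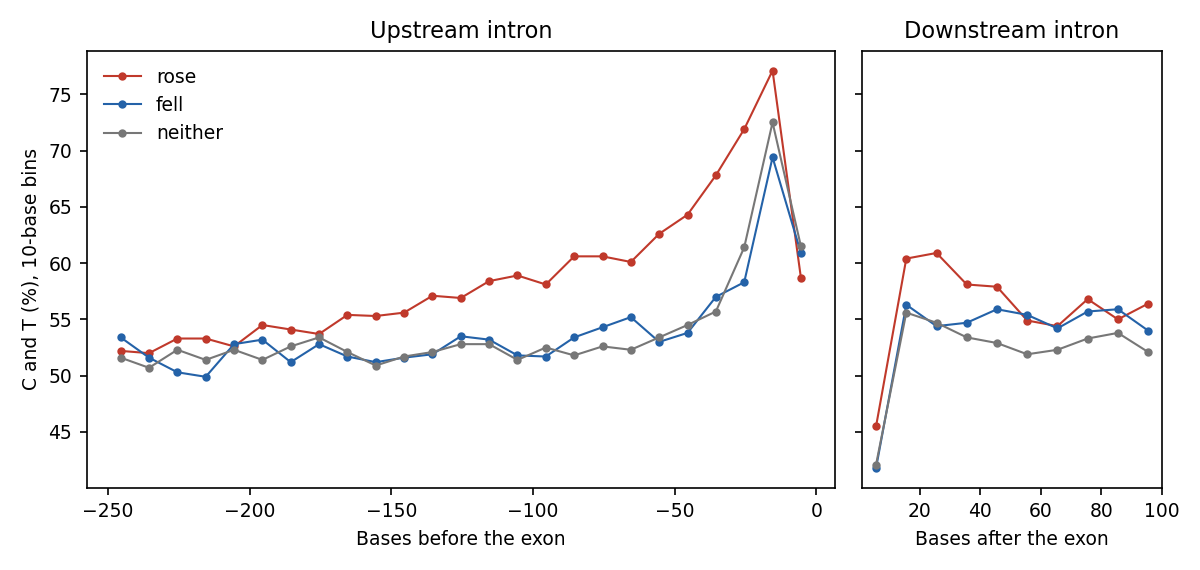
Share (%) of C and T in 10-base bins along the intron before (left) and after (right) the exon, for the exons that rose, fell or did neither. The line of the exons that rose lies above the other lines from about 150 bases before the exon to the polypyrimidine tract, where it reaches 77.1%, and below them in the last 10 bases.

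Short motifs that PTB proteins are known to bind were counted on the transcript strand alone, overlapping matches included. The letters CTCTCT were present upstream of 30.8% of the exons that rose, 16.8% of those that fell and 18.4% of the others, and upstream of 18.3% of all assayable cassette exons. At least 3 matches were found in 7.11%, 1.12% and 1.60%. The letters TCTT had a mean of 3.10 matches upstream of exons that rose, beside 2.09 and 2.11. In the exon itself and in 100 bases downstream the 3 groups were closer in this motif, though not in the exon's share of C and T. CTCTCT was in 6.32%, 5.03% and 6.01% of exons and in 8.70%, 10.1% and 6.38% of downstream windows. A match is a description and not a binding site.

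Grouped by the motif rather than by the call, the share of rises went up with the number of TCTT upstream. Of the 474 exons with 0 or 1 match 12% rose, of the 499 with 2 or 3 20.4%, of the 202 with 4 or 5 30.2%, and of the 72 with 6 or more 45.8%. The shares of falls were 16.9%, 12.4%, 14.4% and 11.1%. In exons over 60 nucleotides alone the shares of rises were 10.2%, 16.8%, 24.2% and 44.9%, and in those of 31 to 60 nucleotides they were 18 of 90, 40 of 129, 22 of 41 and 11 of 23. Median control PSI went from 67.2 in the first group to 55.6 in the last, and its part was not tested. Among frame-shifting exons the shares of rises were 3.34%, 5.72%, 6.82% and 37.0%, the last from 27 exons, and over all assayable cassette exons 7.95%, 15.3%, 23.2% and 39.3%.

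The upstream windows below show how the motifs lie, with every base of a TCTT or CTCTCT match in capitals, in 3 exons among the largest rises and in the exon with the largest fall. Plekha6 and Ralgapa1 hold the most matches of the largest rises, and Mllt4 comes next, level with Tnrc6a and Ppfibp2. All 250 bases run 5′ to 3′ on the transcript strand of mm9 and end at the exon. They are Plekha6 (chr1:135182574-135182823, plus strand), Ralgapa1 (chr12:56836162-56836411, minus), Mllt4 (chr17:13962700-13962949, plus) and Flnc (chr6:29402549-29402798, plus).
Plekha6: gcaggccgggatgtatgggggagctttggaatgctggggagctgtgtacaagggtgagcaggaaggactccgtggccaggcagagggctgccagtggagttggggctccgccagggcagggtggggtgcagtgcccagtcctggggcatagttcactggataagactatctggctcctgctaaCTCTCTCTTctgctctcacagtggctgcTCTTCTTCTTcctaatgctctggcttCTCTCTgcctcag
Ralgapa1: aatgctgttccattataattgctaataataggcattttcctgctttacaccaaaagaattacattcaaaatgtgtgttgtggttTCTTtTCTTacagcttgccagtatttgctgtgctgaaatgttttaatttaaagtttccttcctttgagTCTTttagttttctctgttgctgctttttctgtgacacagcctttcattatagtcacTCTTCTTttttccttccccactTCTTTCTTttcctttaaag
Mllt4: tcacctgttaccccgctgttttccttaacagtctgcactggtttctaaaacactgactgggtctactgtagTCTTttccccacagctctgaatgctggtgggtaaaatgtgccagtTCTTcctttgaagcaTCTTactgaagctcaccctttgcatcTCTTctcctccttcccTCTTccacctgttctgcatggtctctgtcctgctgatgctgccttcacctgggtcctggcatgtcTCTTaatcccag
Flnc: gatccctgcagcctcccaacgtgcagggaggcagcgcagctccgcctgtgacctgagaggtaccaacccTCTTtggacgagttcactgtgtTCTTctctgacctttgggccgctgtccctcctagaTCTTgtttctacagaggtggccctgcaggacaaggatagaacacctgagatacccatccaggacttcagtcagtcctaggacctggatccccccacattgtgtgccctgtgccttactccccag
Plekha6 has 4 TCTT and 3 CTCTCT, close to the exon. Ralgapa1 has 7 TCTT and Mllt4 6, spread over the window, with no CTCTCT. Flnc, whose exon fell, has 3 TCTT and no CTCTCT. The rising exons were picked for their matches and Flnc was not, so these windows do not stand for the rises and falls. Among the largest rises, Clta also has 3 TCTT and no CTCTCT, and Anxa7 has 2 TCTT and no CTCTCT. Among the largest falls, Slc9a7, Triobp and Myo5a have 4 TCTT each, while Arhgap39 and Synrg have 0.

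FPKM ratios, which are used here only between the libraries, could be formed for 979 of the 998 genes and had a median log2 ratio of -0.12. The genes with a rising exon had a median of -0.10 and those with a falling exon -0.15, beside -0.04 over all 9615 named genes with a ratio. At least a 2-fold fall was found in 7 of 219 genes with a rising exon and a 2-fold rise in 2, beside 33 and 36 of the 979 genes and 479 and 1255 of all 9615. With FPKM divided by each library's median, every log2 ratio was 0.46 higher, so that these medians turned positive, at 0.33 for the 979 genes, 0.36 and 0.31 for those with a rising and a falling exon, and 0.42 for all 9615. On that scale 4 of the genes with a rising exon were at least 2-fold lower and 13 at least 2-fold higher. Pip5k1c and Eif4g2 were among the genes whose own ratio was low, at -1.51 and -1.28. In bulk RNA, fewer cells that express a gene and less RNA per cell cannot be told apart.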

How the data were processed

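RNA-seq of 2 libraries of N2A cells was analysed, 1 per condition. Per the labels, reads were processed with CASAVA, TopHat and Cufflinks on mm9, and the methods add SpliceTrap for exon inclusion. The authors deposited, for each exon trio, the fraction of inclusion, both uncorrected and corrected by SpliceTrap, the count of reads on each junction, and the coverage as a signal in reads per 100 nucleotides, the counts and coverage not being scaled to library size. The authors also deposited FPKM for assembled genes and isoforms, on a scale far above the usual, so only ratios were used. PSI was the corrected fraction in percent. Trio reads were coverage times trio length. For each exon, the trio with most reads was taken. For junction PSI, reads of the 2 inclusion junctions were averaged and rounded, and divided by this mean plus the skipping reads, with 95% Wilson and Newcombe intervals, and Fisher's exact tests for single named exons. Those tests use the same reads as the calls and are no separate support for them. Coding segments and sequence came from the NCBIM37 assembly and its GENCODE annotation, in which all starts were counted from 1. FPKM genes were matched by RefSeq transcript, or by the locus over at least 50% of the annotated gene.

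The exons, gene lists and tests were chosen with earlier results of these data known. Named exons were the 15 largest rises and 10 largest falls with at least 20 junction reads in each library, the 2 called exons with most reads in each list, exons of 1 gene called in opposite directions, those at the selection limits, and Ptbp1, Ptbp2 and Ptbp3. Other exons were added after their values were seen. Some results of this rule are not reported here. The interval and the call were tested on simulated junction reads. Scripts used matplotlib 3.10.9, pysam 0.24.0, SciPy 1.17.1 and pandas 2.3.3 under Python 3.11.15.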

Additional observations from a re-analysis of the deposited data

How the results depend on the processing

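Of 44 alternative settings, 33 left the value within 1.5 times the count or within its interval, and none turned a direction. Without a limit on PSI the selection held 2079 exons, and the other 6 ways of choosing them gave between 1016 and 1373. The calls depended on the threshold. With 5 points alone 393 exons rose and 325 fell, with 20 points 108 and 43, and with a wider junction interval 150 and 91. The ratio before correction gave 252 rises and 180 falls, and junction PSI 255 and 185. With 1 exon per overlapping group, chosen after seeing the data, 245 rose and 173 fell. The median upstream share of C and T of the exons that rose was above that of all 1247 exons by 3.6 points over 250 bases, by 8.0 over 100 and by 6.0 over 50. The log2 ratio of Ptbp1 was -1.15 with FPKM divided by each library's median, with a pseudocount of 1 and, added after seeing the data, of 0.1, and -1.61 otherwise. On that scale Ptbp2 was at 1.39 and Ptbp3 at -0.42. With 1 library per group, no library could be left out. No paired analysis was possible because each group has 1 library and the labels carry no replicate number. Of 432 called exons, 19 had a PSI difference outside their junction interval, and 56 of the 1247 exons had fewer than 20 junction reads in a library, 2 of them called.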
